A study of Mus musculus with 12 samples.

Results

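The WNT signalling genes described here are the ligands, receptors and secreted modulators of the pathway, measured in whole testes of young Pramef12 Null and Pramef12 Het mice. The rule goes by gene name and takes every protein-coding Wnt, Fzd, Rspo, Sfrp, Dkk and numbered Lgr gene, with Lrp5, Lrp6, Axin2, Lef1, Tcf7, Wif1, Znrf3 and Rnf43. Of 52 genes with such names, 47 had at least 10 counts over the 12 samples, out of 49585 genes counted in all. Dkk1, Dkk4, Wnt1, Wnt16 and Wnt8a fell below that minimum. The 47 were 16 WNT ligands, 10 frizzled receptors, 2 LRP co-receptors, 4 R-spondins, 3 LGR receptors, 2 receptor ubiquitin ligases, 4 secreted frizzled-related proteins, the WNT inhibitory factor Wif1, 2 Dickkopf genes and 3 genes for feedback and DNA binding.

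Poly(A) RNA of testes from postnatal day 2 (P2) and day 7 (P7) was sequenced, with 3 samples in each of 4 groups. Pramef12 Null mice (Pramef12-/-) carry a short deletion after the start codon on both alleles, and the Pramef12 Het controls (Pramef12+/-) carry it on a single allele, so no group here is free of it. The deletion came from CRISPR/Cas9 editing of zygotes, all mice are from 1 founder line, and the strain is B6D2F1 (labelled inbred). By the study's reporting summary a sample was an animal or a single testis of an animal, and the labels do not say which applies here. Whether any of these samples share an animal is not given, and P values measure the spread between the samples. Each sample held 14438781 to 21043245 counts, with a median of 18046858.

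WNT proteins are lipid-modified ligands that bind a frizzled receptor together with LRP5 or LRP6. The signal stabilizes beta-catenin, which acts with TCF and LEF proteins on target genes such as Axin2. R-spondins bind LGR receptors and keep the ubiquitin ligases ZNRF3 and RNF43 from removing frizzled receptors, while SFRP, WIF1 and DKK proteins block ligands or co-receptors. In the testis, WNT ligands made by somatic cells are known to act on spermatogonia, whereas WNT4 and RSPO1 are best known for their part in the development of the ovary.

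The targeted gene checks the labels. Pramef12 had 11, 15.9 and 20.0 CPM (read counts scaled to library size by the TMM method) in the P2 Het samples and 5.70, 2.21 and 4.05 in the P2 Null samples. At P7 it had 82.4, 88.7 and 65.2 CPM in Het and 24.4, 18.8 and 28.4 in Null testes. Null samples were below all Het samples at both ages, with log2 fold changes of -1.99 ± 0.31 (SE) at P2 and -1.72 ± 0.16 at P7. Only the second passed the threshold (adjusted P = 0.125 and 0.00181). Throughout, fold changes and adjusted P values are from edgeR's quasi-likelihood test with Benjamini-Hochberg adjustment over all genes tested, and the threshold is 0.1.

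Markers of testis cell types were present in every group, and in 2 lists most of the markers tested passed the threshold between the P7 genotypes. The summed level of 18 germ cell markers was 678 to 799 CPM in P2 Het, 420 to 579 in P2 Null, 1454 to 1792 in P7 Het and 737 to 1031 in P7 Null samples. At P7, 16 of the 17 germ cell markers tested were lower and none was higher in Null testes. The sum of 12 Sertoli cell markers was 6401 to 6648 CPM in P7 Het and 8305 to 8708 in P7 Null samples, and 10 of the 12 were higher. Leydig cell markers had their highest P7 sum, 829 CPM, in P7 Null sample 6, against 383 to 501 in P7 Het samples. That sample also had the highest macrophage sum of all 12, at 205 CPM. The endothelial sum was 283 to 303 CPM in P7 Het and 309 to 335 in P7 Null samples, but none of its 6 markers passed the threshold. In bulk tissue, fewer cells of a type and less RNA per cell cannot be told apart. By staining, the paper counted similar numbers of germ cells in the 2 genotypes at P2 and fewer in Null testes at P7. It found no difference in Sertoli cell number at later ages. The part of the marker shifts in the WNT gene results was not tested.

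**Figure D1:**
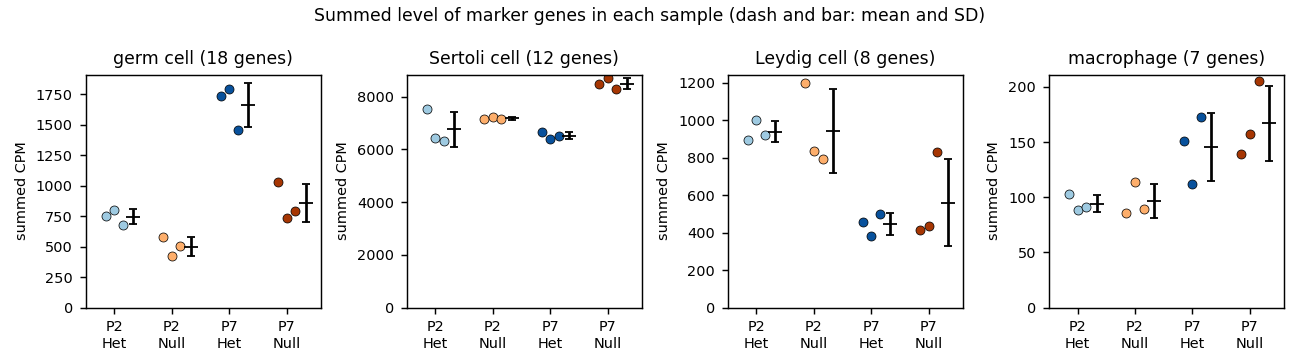
Summed CPM of germ cell, Sertoli cell, Leydig cell and macrophage marker genes (vertical axes, from 0) in the 4 groups. Points are single samples, and dashes with bars are the mean and SD of 3 samples. The P7 Null germ cell sums, 737 to 1031, all lie below the P7 Het sums, 1454 to 1792.

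The promoters of 3 genes that the results turn on are shown first, since Axin2 and Rspo4 were lower and Wnt6 was higher in P7 Null testes. They are the genes of that comparison with a single RefSeq start that equals the start of the gene in the deposited annotation. Each line gives the 250 bases before the start on the strand of the gene, from the RefSeq promoters of GRCm38.p6. Capitals mark the GC box GGGCGG or its reverse complement.
Axin2, chr11:108920099-108920348, plus strand: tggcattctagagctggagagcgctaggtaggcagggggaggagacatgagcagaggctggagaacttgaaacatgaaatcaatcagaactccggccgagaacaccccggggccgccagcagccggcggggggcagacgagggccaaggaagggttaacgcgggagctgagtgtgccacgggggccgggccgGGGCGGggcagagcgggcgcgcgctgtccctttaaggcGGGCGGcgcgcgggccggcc
Rspo4, chr2:151842677-151842926, plus strand: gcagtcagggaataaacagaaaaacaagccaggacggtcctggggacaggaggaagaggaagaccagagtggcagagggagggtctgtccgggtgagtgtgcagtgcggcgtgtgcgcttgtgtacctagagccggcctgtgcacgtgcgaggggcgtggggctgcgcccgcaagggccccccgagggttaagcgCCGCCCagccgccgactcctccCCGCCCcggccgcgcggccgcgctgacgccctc
Wnt6, chr1:74771642-74771891, plus strand: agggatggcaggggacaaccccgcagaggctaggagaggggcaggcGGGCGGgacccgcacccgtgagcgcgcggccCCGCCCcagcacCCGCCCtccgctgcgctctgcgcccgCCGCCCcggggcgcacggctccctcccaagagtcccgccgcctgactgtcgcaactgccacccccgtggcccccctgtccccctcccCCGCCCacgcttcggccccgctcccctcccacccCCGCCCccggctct

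The Axin2 and Rspo4 windows each held 2 GC boxes, and the Wnt6 window held 6. Their GC content was 69.2%, 69.6% and 79.6%. RefSeq promoters of 300 bases (250 before and 50 after the start) were at hand for 31 of the 47 genes, as 39 windows. A GC box on either strand was found in 74.4% of these windows and in 35.7% of all 32851 promoters. Median GC content was 67.3% in the WNT genes and 52.7% in all promoters, and the observed-to-expected ratio of CpG was 0.754 against 0.384. The TCF/LEF word CTTTGAT was in 2 of the 39 windows, those of Wnt5b and Wnt11, and in 3.73% of all promoters. CTTTGTT was in 2 of the 39, those of Fzd7 and Wnt3, and in 5.85% of all. These are matches of letters on either strand.

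Levels within families spanned orders of magnitude. Wnt6, a ligand that Sertoli cells are known to make, was the most abundant ligand, with 94.9 ± 13.2 CPM per kb of exon (SD, n = 3) in P2 Het and 86.2 ± 3.57 in P7 Het testes. Wnt5a, best known for signalling without beta-catenin, followed with 26.7 ± 3.12 and 14.8 ± 0.744, and its relative Wnt5b with 7.41 ± 0.794 and 7.72 ± 0.473. The other 13 ligands each averaged 5.72 or less per kb over the 12 samples.

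Wnt genes that lie side by side differed widely in level. Wnt10a starts 6.2 kb after Wnt6 ends on chromosome 1, yet it averaged 0.251 CPM per kb against 94.8 for Wnt6. On chromosome 11, Wnt9a had 2.99 and Wnt3a, 16.2 kb away, 0.0604. Wnt3 had 0.712 and Wnt9b, 24.3 kb away on the same chromosome, 0.093.

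Among the receptors Fzd2, Fzd7 and Fzd3 led, with averages of 27.3, 18.5 and 17.4 CPM per kb over the 12 samples. In P7 Het testes Fzd3, at 16.4 ± 0.497, was above Fzd7, at 14.6 ± 0.0931. The co-receptors Lrp6 and Lrp5 had 16.7 and 15.3, with 19.4 ± 1.19 and 18.5 ± 0.557 in P2 Het and 13.5 ± 0.189 and 12.7 ± 0.434 in P7 Het testes. Lgr4 had 16.4 and exceeded the other LGR receptors, Lgr6 at 0.336 and Lgr5 at 0.257. Rspo1 was the leading R-spondin with 7.67, followed by Rspo4 with 3.0 and Rspo2 with 1.25. Znrf3 had 12 and the related ligase Rnf43 0.506.

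The secreted inhibitors were led by Sfrp1, with 63.2 CPM per kb, ahead of Sfrp2 with 11.1 and Sfrp4 with 7.69. Dkk3, the Dickkopf gene with no established block of LRP6, averaged 6.74, against 0.389 for Dkk2 and 1.85 for Wif1. Tcf7, which encodes the DNA-binding protein TCF1, had 51.1 on average, and in P7 Het testes its 53.7 ± 7.38 was above the 43.9 ± 2.19 of Sfrp1. The average compares with 5.72 for Axin2 and 0.46 for Lef1.

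**Figure D2:**
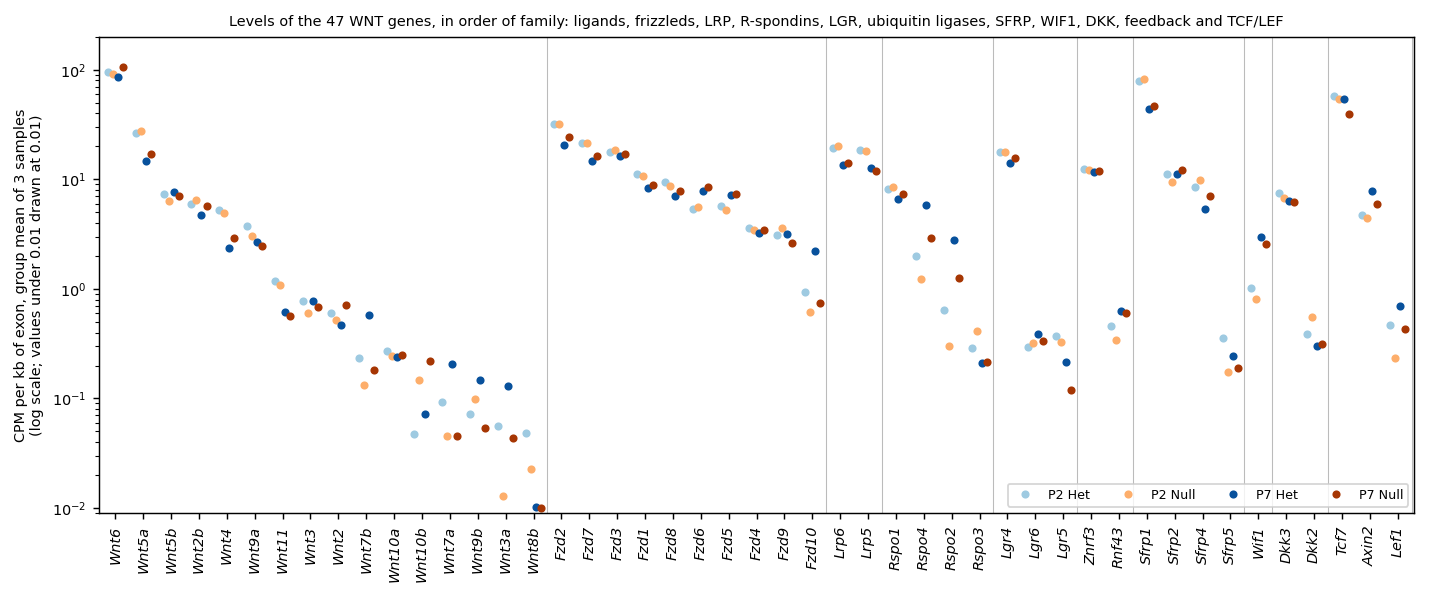
Mean CPM per kb of exon (vertical axis, log scale) of each of the 47 genes in the 4 groups, ordered by family and level. Each point is the mean of 3 samples. Wnt6, Sfrp1 and Tcf7 stand highest, with averages of 94.8, 63.2 and 51.1 over the 12 samples, although in P7 Het Tcf7 (53.7) is above Sfrp1 (43.9).

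At P7 the question was which of these genes differed between Pramef12 Null and Het testes. Of 42 genes tested, 7 were lower in Null testes (Wnt7b, Fzd10, Rspo2, Rspo4, Lgr5, Tcf7 and Axin2) and 3 were higher (Wnt6, Wnt2b and Fzd2). Among all 16703 genes tested, 13.3% were lower and 7.47% were higher. The shares among the WNT genes, 16.7% and 7.14%, were thus near those of all genes. The 7 fell by 0.39 to 1.67 on the log2 scale, while the 3 rose by 0.23 to 0.30 in the main scaling. When libraries were scaled on Sertoli cell genes, the 3 lay at -0.15 to -0.08, below 0, and none passed the threshold. That scaling moved the median of all genes from 0.01 to -0.37. The called genes were picked by these same samples, so the separation of their Het and Null samples given below is no further support. The share of all genes with such separation was not counted.

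Wnt7b, a ligand of the beta-catenin pathway, had 2.76, 2.50 and 2.45 CPM in the P7 Het samples and 0.984, 0.581 and 0.844 in the P7 Null samples. Its log2 fold change of -1.67 ± 0.24 (adjusted P = 0.00624) was the largest among the genes tested here. At P2 it had 0.775, 1.22 and 1.07 CPM in Het and 0.46, 0.736 and 0.553 in Null samples. The Null samples were below all Het samples at both ages, and the P7 Null values lay in the range of the P2 samples. Of its exon bases 0.86% overlap AU022754 on the opposite strand, and counting ignored strand. The P2 difference of -0.79 ± 0.32 did not pass the threshold (adjusted P = 0.783).

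Fzd10, a frizzled receptor, had 7.11, 6.20 and 8.15 CPM in P7 Het and 3.23, 2.22 and 1.75 in P7 Null samples. The groups did not overlap, and the log2 fold change was -1.56 ± 0.23 (adjusted P = 0.00687). At P2 the values were 3.10, 3.19 and 2.82 in Het and 1.32, 1.91 and 2.76 in Null samples, again without overlap but with adjusted P = 0.823. No other frizzled gene was lower at P7: the remaining ones not called lay between -0.25 (Fzd9) and 0.17 (Fzd7).

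Of the 4 R-spondins, 2 were lower. Rspo2 had 10.6, 8.76 and 8.57 CPM in P7 Het samples and 4.36, 5.44 and 2.77 in P7 Null samples, a log2 fold change of -1.15 ± 0.23 (adjusted P = 0.0165). Rspo4 had 14.7, 15 and 12.1 CPM in P7 Het and 8.90, 5.01 and 6.75 in P7 Null samples, a change of -1.01 ± 0.20 (adjusted P = 0.016). Every Null sample of both genes was below every Het sample. The others had values of 0.15 ± 0.18 (Rspo1) and 0.03 ± 0.32 (Rspo3), neither past the threshold.

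Lgr5, a receptor for R-spondins and a marker of stem cells in the intestine, was scarce, with 2.00, 2.50 and 2.12 CPM in P7 Het and 1.17, 1.21 and 1.27 in P7 Null samples. All Null samples were below the Het samples, with a log2 fold change of -0.86 ± 0.20 (adjusted P = 0.0287). Its call was lost without P7 Het sample 5 (adjusted P = 0.11) and in DESeq2 on the same samples (0.108), and adjusted P in the other settings with all 6 samples was 0.00141 to 0.0437. The more abundant Lgr4 was at 0.15 ± 0.08 and Lgr6 at -0.18 ± 0.21, and neither passed.

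Axin2, a direct target that feeds back on the pathway, had 45.6, 41.1 and 42.3 CPM in P7 Het and 34.0, 31.7 and 32.7 in P7 Null samples. The groups were tight and apart, with a log2 fold change of -0.39 ± 0.07 (adjusted P = 0.0119). Of its exon bases 3.8% overlap Gm11670 on the opposite strand. Tcf7 had 144, 159 and 120 CPM in Het and 107, 115 and 87.1 in Null samples, a change of -0.45 ± 0.12 (adjusted P = 0.045). Its lowest Het sample was close to its highest Null sample, and its call was lost without P7 Het sample 4 or 5, with a largest adjusted P of 0.151. Lef1, a relative of Tcf7 named here after its values were seen, had 6.81, 6.53 and 5.09 CPM in Het and 3.70, 2.53 and 5.19 in Null samples. Lef1 shares 13.75% of its exon bases with Gm43352 on the opposite strand. Its groups overlapped in Null sample 6, and it missed the threshold with -0.70 ± 0.25 (adjusted P = 0.108). Lef1 was called lower in DESeq2 (adjusted P = 0.0802), in the edgeR fit of all 12 samples (0.0672) and without the filter on low counts (0.0511). It was also called under Sertoli scaling (0.00787), with the replicate block (0.0805) and without Null sample 6 (0.0375). Leaving out P7 Het sample 4, 5 or 6 or Null sample 4 or 5 gave no call (edgeR, adjusted P = 0.107 to 0.278). Nor did size factors of the DESeq2 type.

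Wnt6 had 183, 198 and 186 CPM in P7 Het and 219, 247 and 233 in P7 Null samples, a rise of 0.30 ± 0.06 on the log2 scale (adjusted P = 0.0192) that became -0.08 under Sertoli scaling. Wnt2b, a ligand of the beta-catenin pathway, had 19.0, 20.4 and 19.7 CPM against 22.5, 25.5 and 24.5 (0.30 ± 0.08, adjusted P = 0.0488; -0.09 under Sertoli scaling). Fzd2 had 76.7, 70.0 and 81.6 CPM against 94.3, 86.5 and 87.0 (0.23 ± 0.07, adjusted P = 0.0796; -0.15 under Sertoli scaling). Null samples were above all Het samples in each of the 3 genes. The calls of Wnt2b and Fzd2 were lost on leaving out most samples: Wnt2b stayed past the threshold in 2 of the 6 fits that left out a sample, with a largest adjusted P of 0.163 and losses without P7 Het 4, Het 5, Null 5 or Null 6. Fzd2 stayed in 1 of 6, that without P7 Het 6, with a largest adjusted P of 0.228.

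**Figure D3:**
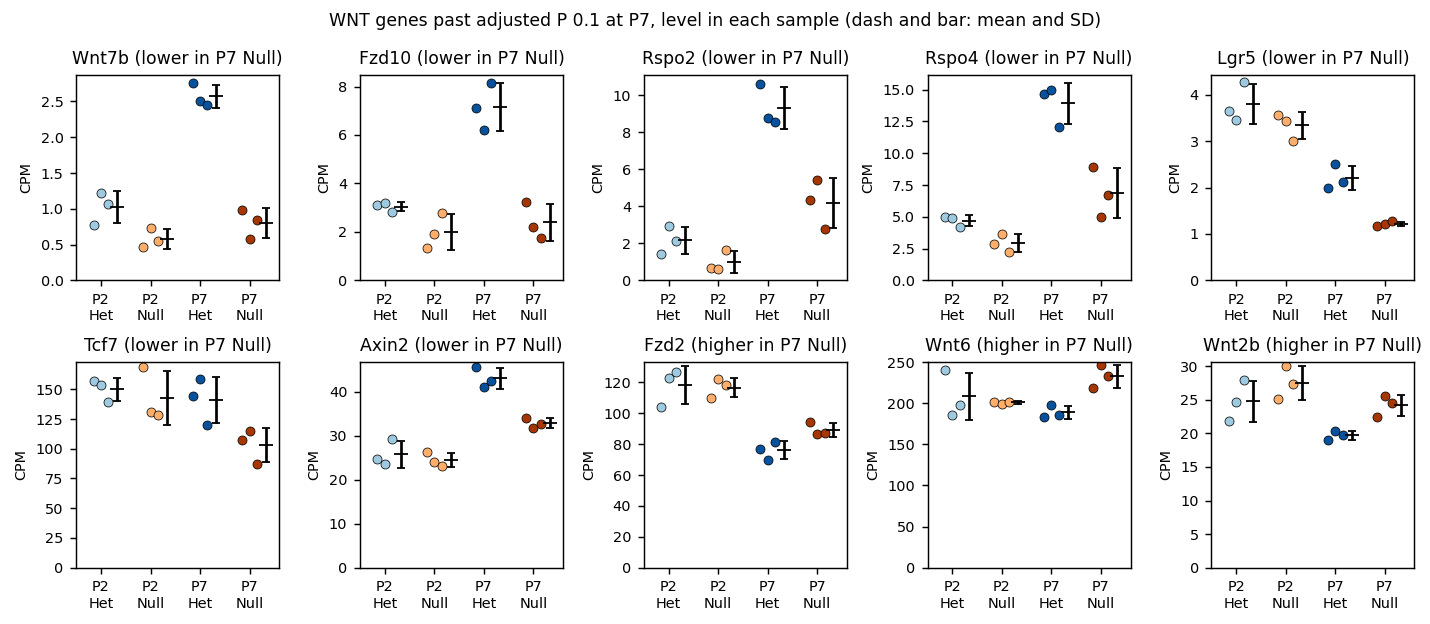
CPM (vertical axes, from 0) of the 10 genes past the threshold at P7, in each of the 12 samples by group. Dashes with bars are the mean and SD of 3 samples. The 7 lower genes and the 3 higher genes show no overlap of Null and Het samples at P7. They were picked by this comparison, so that is no further support, and uncalled genes such as Fzd7, Wnt2 and Fzd8 do the same. Under Sertoli scaling the 3 higher genes (Fzd2, Wnt6, Wnt2b) turn to -0.15, -0.08 and -0.09 on the log2 scale, none past the threshold.

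The remaining 32 genes tested at P7 had log2 fold changes between -0.70 (Lef1) and 0.60 (Wnt2), with a median SE of 0.14. The secreted inhibitors were among them: none of the 4 SFRP genes, Wif1 or the 2 Dickkopf genes passed, with Sfrp1 at 0.10 ± 0.08 and Wif1 at -0.22 ± 0.15. The co-receptors Lrp5 and Lrp6 stood at -0.10 ± 0.08 and 0.05 ± 0.05, and the ligases Znrf3 and Rnf43 at 0.03 ± 0.08 and -0.07 ± 0.24. Deviations from the group means in same-numbered P7 samples had correlations of 0.12 to 0.37. A pair of unlike number (Het 5 and Null 4) reached 0.20, so the numbers are not shown to mark pairs. A fit with the number as a block called 6 WNT genes higher and 8 lower, in place of 3 and 7. All 10 were kept, and Fzd7, Lgr4 and Wnt4 (higher) and Lef1 (lower) were added.

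Wnt10b, Wnt3a, Wnt7a, Wnt8b and Wnt9b had too few counts to be tested in either genotype comparison, all at or below 1.09 CPM in every sample, and Sfrp5 was not tested at P2. Wnt7a, a ligand for which the P7 groups did not overlap, had 0.351, 1.09 and 0.518 CPM in P7 Het and 0.0937, 0.158 and 0.181 in P7 Null samples. Wnt10b went the other way, with 0.10, 0.218 and 0.188 in P7 Het and 0.75, 0.422 and 0.362 in P7 Null samples. Both were named after their values were seen, and the P7 groups of Wnt3a and Wnt9b did not overlap either. The P7 Null values of Wnt7a rest on 2, 3 and 3 counts. Without the filter on low counts, Wnt10b was called higher and Wnt7a and Wnt9b lower at P7.

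At P2 no WNT gene passed the threshold in either direction. Of 41 genes tested, 7 had an unadjusted p below 0.05, all lower in Null testes, and none was higher. Of all genes tested, 3.81% were lower and 2.23% higher at that unadjusted p, and the 7 dropped to 2 without P2 Het sample 2 and to 3 without P2 Null sample 2. DESeq2 on the same samples called none either. By adjusted P, 0.0363% of the 16531 genes tested at P2 were lower and 0.00605% were higher. The log2 fold changes of the WNT genes lay between -1.14 (Rspo2) and 0.52 (Rspo3), with a median of -0.08 and a median SE of 0.12.

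The smallest P2 adjusted P, 0.312, was that of Lef1. It had 4.37, 3.32 and 4.73 CPM in P2 Het and 2.19, 2.36 and 1.66 in P2 Null samples, without overlap, and a log2 fold change of -1.0 ± 0.22. Rspo4 had 5.00, 4.88 and 4.23 CPM in Het and 2.88, 3.68 and 2.27 in Null samples, also without overlap (-0.66 ± 0.21, adjusted P = 0.63). Rspo2 had 1.41, 2.91 and 2.14 CPM in Het and 0.69, 0.638 and 1.66 in Null samples (-1.14 ± 0.41, adjusted P = 0.731), and its groups overlapped. Sfrp2 (-0.25 ± 0.09, adjusted P = 0.699) and Wnt9a (-0.28 ± 0.11, adjusted P = 0.765) were below 0 at P2 without overlap. At P7 Sfrp2 was at 0.11 ± 0.14 and Wnt9a at -0.13 ± 0.14, and neither passed the threshold.

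The P2 samples were not used to find the P7 differences, so the 10 genes can be read in them side by side. All 7 genes lower at P7 had a P2 log2 fold change below 0, from -1.14 to -0.07 with a median of -0.60. Of all genes lower at P7, 81.3% of the 2098 tested at P2 had the same sign there, with a median of -0.10. The 3 genes higher at P7 (each below 0 at that age under Sertoli scaling) had -0.05 (Wnt6), 0.15 (Wnt2b) and -0.02 (Fzd2) at P2, so 1 of 3 had the same sign. Of all genes higher at P7, 76.6% of the 1237 tested at P2 did, with a median of 0.06. None of the 10 passed at P2.

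**Figure D4:**
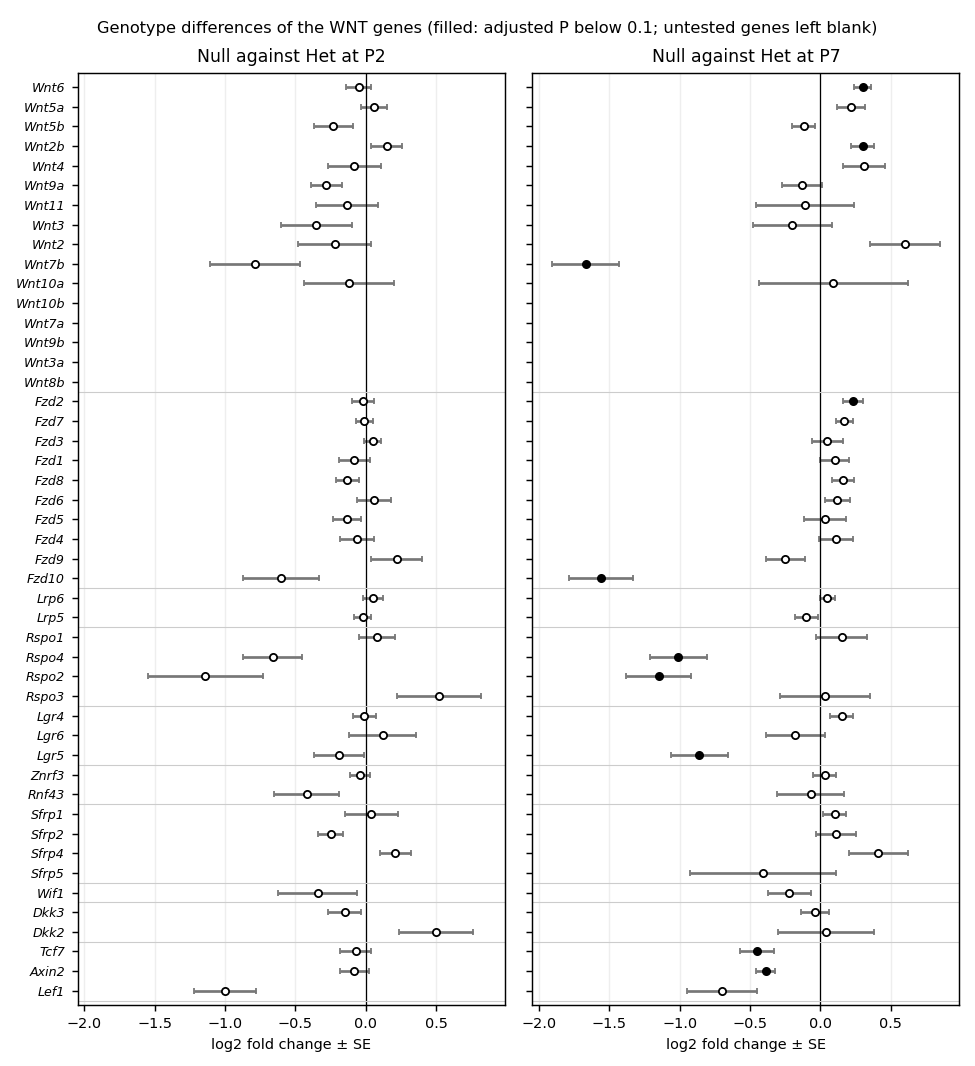
Log2 fold change of Null against Het with its SE (horizontal axes) for each tested gene at P2 and at P7, by family. Filled points are past adjusted P of 0.1: none at P2 and 10 at P7. Of these, the 3 to the right of 0 (Wnt6, Wnt2b, Fzd2) lie left of 0 under Sertoli scaling, at -0.08, -0.09 and -0.15, none past the threshold.

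Whether the genotype difference itself changed between the ages was tested by the interaction term over all 12 samples. None of 43 WNT genes passed, with 4 above and 5 below 0 at an unadjusted p below 0.05, and DESeq2 called none. Of all genes, 5.0% were above and 8.32% below 0 at that unadjusted p. By adjusted P, 0.0286% of 17494 genes had a higher and 0.486% a lower Null level relative to Het at P7 than at P2. The P7 difference minus the P2 difference was -0.96 ± 0.37 for Fzd10 (adjusted P = 0.295), -0.87 ± 0.39 for Wnt7b (0.363), -0.67 ± 0.25 for Lgr5 (0.272) and 0.35 ± 0.12 for Wnt6 (0.232). The replicate block called Tcf7 (-0.37 ± 0.09, adjusted P = 0.0876). Sertoli scaling called 8 genes lower, Fzd10, Wnt7b, Lgr5, Axin2, Tcf7, Fzd9, Lrp5 and Wnt9b, and moved the median of all genes from 0.00 to -0.29. By the main test, a call at P7 and none at P2 does not show that these genes differed between the ages in their response.

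Age was compared in the Het testes alone, and age and the day of collection cannot be told apart. From P2 to P7, 8 of 42 WNT genes rose and 17 fell. Of all 16742 genes tested, 26.3% rose and 26.1% fell, against 19.0% and 40.5% of the WNT genes. The median log2 fold change of the WNT genes was -0.23 and that of all genes 0.00. Germ cell marker sums rose from 678 to 799 CPM at P2 to 1454 to 1792 at P7, and 15 of the 17 tested rose. Over the same days 6 of 7 interstitial stromal, 6 of 7 Leydig and 5 of 6 endothelial markers tested fell. Other lists differed: 6 of 12 Sertoli markers rose and 2 fell, and 4 of 7 macrophage and 3 of 5 blood markers rose. Of 6 myoid markers, 2 rose and 2 fell. The part of these shifts in the WNT gene changes was not tested.

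The largest rises were those of the R-spondins Rspo2 and Rspo4. Rspo2 went from 1.41, 2.91 and 2.14 to 10.6, 8.76 and 8.57 CPM, a log2 fold change of 2.08 ± 0.23 (adjusted P = 0.000136), and Rspo4 rose by 1.54 ± 0.14 (adjusted P = 4.54e-05). The third R-spondin called, Rspo1, fell by 0.30 ± 0.11 (adjusted P = 0.0441), and its call was lost in several settings given below. Wif1, a secreted protein that binds WNT ligands, had 2.04, 2.78 and 2.59 CPM at P2 and 8.47, 6.42 and 6.92 at P7. All P7 samples of Wif1 were above those of P2, with a rise of 1.53 ± 0.18 (adjusted P = 0.000232). Wnt7b rose by 1.29 ± 0.23 and Fzd10 by 1.22 ± 0.17 (adjusted P = 0.00201 and 0.000447).

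Axin2 rose from 24.6, 23.5 and 29.2 CPM to 45.6, 41.1 and 42.3 CPM, by 0.71 ± 0.10 (adjusted P = 0.000467). The 2 further rises were those of Lef1 and Fzd6, at 0.54 ± 0.19 and 0.51 ± 0.12. The call of Lef1 was lost without P2 Het sample 2, P7 Het sample 4 or P7 Het sample 5, with adjusted P of up to 0.128. Tcf7 was at -0.11 ± 0.09 and was not called.

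Among the ligands that fell, Wnt4 had 15.5, 26.9 and 23.1 CPM at P2 and 7.97, 10.8 and 11.1 at P7, a log2 fold change of -1.16 ± 0.20 (adjusted P = 0.00171). Wnt11 had 3.66, 4.47 and 6.54 CPM at P2 and 2.71, 2.88 and 2.12 at P7, and fell by 0.97 ± 0.24 (adjusted P = 0.0104), with 8.8% of its exon bases overlapping Gm8398 on the opposite strand. Wnt5a had 185, 234 and 209 CPM at P2 and 110, 115 and 122 at P7, and fell by 0.88 ± 0.09 (adjusted P = 8.65e-05). All P7 samples of these ligands were below all P2 samples. Wnt6, the most abundant ligand, was at -0.16 ± 0.09 and was not called.

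Sfrp1, the most abundant secreted inhibitor, had 265, 460 and 320 CPM at P2 and 184, 203 and 188 at P7. The P2 samples were spread widely but all lay above those of P7, and the fall was 0.89 ± 0.17 (adjusted P = 0.00254). Sfrp4 had 14.8, 14.4 and 15.7 CPM at P2 and 8.22, 10.9 and 9.04 at P7, and fell by 0.70 ± 0.12 (adjusted P = 0.00171). Lgr5 fell by 0.81 ± 0.19 (adjusted P = 0.0071), from 3.66, 3.46 and 4.28 to 2.00, 2.50 and 2.12 CPM.

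The receptors that fell included both co-receptors, Lrp5 by 0.57 ± 0.05 and Lrp6 by 0.55 ± 0.06, and 5 of the 10 frizzleds, from 0.15 (Fzd3) to 0.66 (Fzd2). Of the falls, 2 were lost on leaving out a sample: Rspo1 was lost without P2 Het 2 or P7 Het 4 (adjusted P of up to 0.17), and Fzd3 was lost in 5 of 6 fits, all but that without P2 Het 1 (up to 0.188). Both were also lost in DESeq2, without the filter, in the fit of all 12 samples and under Sertoli scaling. Over these settings adjusted P reached 0.216 for Rspo1 and 0.593 for Fzd3. The fall of Wnt2b was lost under Sertoli scaling (edgeR, adjusted P = 0.138). The 17 genes not called lay between -0.53 (Sfrp5) and 0.44 (Rnf43).

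**Figure D5:**
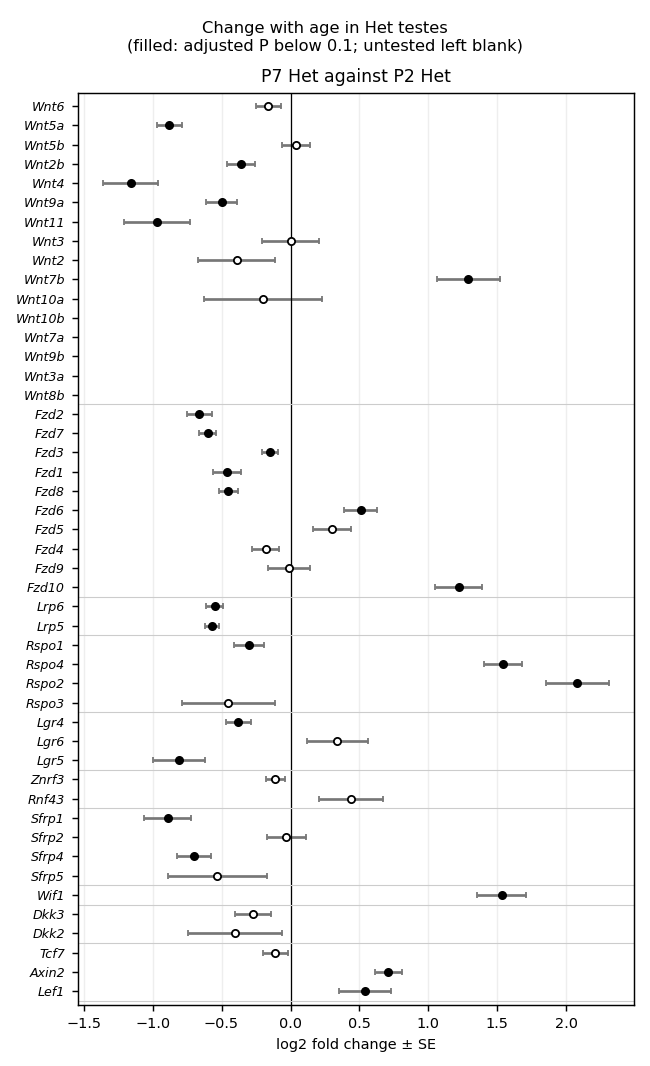
Log2 fold change from P2 to P7 in Het testes with its SE (horizontal axis) for each tested gene, by family. Filled points are past adjusted P of 0.1, with 8 rises led by Rspo2 at 2.08 and 17 falls led by Wnt4 at -1.16.

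The age and P7 genotype comparisons share the 3 P7 Het samples, so their values are only set side by side. Rspo2, Rspo4, Wnt7b, Fzd10 and Axin2 had age changes of 2.08, 1.54, 1.29, 1.22 and 0.71 and P7 genotype changes of -1.15, -1.01, -1.67, -1.56 and -0.39. Lgr5 was below 0 in both (-0.81 and -0.86), as was Tcf7 (-0.11, not called, and -0.45). Wif1, with an age change of 1.53, had a P7 genotype change of -0.22 ± 0.15, not past the threshold.

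Other genes of the pathway were listed by role, and their counts stand beside the 13.3% lower and 7.47% higher of all genes at P7. At P7 both genes past the threshold among 6 for ligand processing were higher in Null testes: Porcn, the acyltransferase that adds the lipid, by 0.41 ± 0.14, and Wls, the carrier of WNT proteins, by 0.25 ± 0.07. Of 28 intracellular genes tested, 1 was higher (Prickle1 of the planar polarity pathway, 0.25 ± 0.07) and none was lower. Of 16 nuclear genes, 2 were higher, Tcf7l2 (0.23 ± 0.07) and Aes (0.19 ± 0.06), and 3 were lower, the co-repressor Tle3 (-0.64 ± 0.10), the co-activator Crebbp (-0.26 ± 0.07) and Pygo2 (-0.21 ± 0.06). Sertoli scaling moved the median of all genes at P7 from 0.01 to -0.37, a shift larger than or close to each of these rises. Values of the listed genes here and in the next paragraph are in the main scaling, and those under Sertoli scaling are not given.

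Of 14 common WNT target genes, 2 were lower (14.3%, beside 13.3% of all genes) and none was higher. Ascl2, a transcription factor of intestinal stem cells, fell by 2.83 ± 0.23 (adjusted P = 0.00146), from 8.58 ± 0.463 CPM (SD, n = 3) in P7 Het to 1.2 ± 0.401 in P7 Null testes. Ccnd1, which encodes cyclin D1, fell by 1.21 ± 0.19 (adjusted P = 0.00779). The paper stained cyclin D1 as a marker of dividing spermatogonia and counted fewer positive cells per tubule in P7 Null testes. Among 20 other receptors and matrix genes Gpc4 was higher (0.19 ± 0.05) and Celsr3 (-1.0 ± 0.28) and Sdc1 (-0.64 ± 0.12) were lower. Among 8 other antagonists tested, Shisa2 (0.52 ± 0.16) and Igfbp4 (0.31 ± 0.09) were higher and Shisa3 (-0.87 ± 0.28) was lower. The medians of these 6 lists at P7 lay between -0.04 and 0.07, beside 0.01 for all genes. None of their genes was called at P2 or in the interaction by the main edgeR test, which called 6 of all genes lower at P2. The paper, with DESeq2 at the same threshold, named Ascl2 among the stem cell maintenance genes lower at P2 and at P7.

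With age in Het testes, 13 of the 20 other receptors and matrix genes and 15 of 28 intracellular genes fell (65.0% and 53.6%, beside 26.1% of all genes), and 2 of each rose (10.0% and 7.14%, beside 26.3%). Their median log2 fold changes were -0.57 and -0.21, beside 0.00 for all genes. The 14 common targets had 5 rises and 3 falls (35.7% and 21.4%), with a median of 0.20.

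On chromosome 4, which carries Pramef12, Rspo1 ends 19.38 Mb and Wnt4 7.09 Mb before it. Their genotype changes were 0.08 ± 0.13 and -0.08 ± 0.19 at P2 and 0.15 ± 0.18 and 0.31 ± 0.15 at P7, none past the threshold without the block.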

How the data were processed

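RNA of 12 testis samples was sequenced from Nextera libraries of double-stranded cDNA. The authors trimmed reads with cutadapt 1.16, aligned them to GRCm38 (mm10) with HISAT2 2.1.0, discarded reads that aligned to several places and assigned the rest to genes with featureCounts 1.6.1, ignoring strand, which merges sense and antisense reads. The deposited values are raw read counts per gene, not normalized. Tool versions are from the submitters' processing notes. Symbols came from GENCODE M21 for 49326 genes, and 259 were not matched.

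Counts were tested here in R 4.3.3 with edgeR 4.0.16: filterByExpr (minimum count 10, minimum total 15), TMM scaling, and its quasi-likelihood F test (two-sided; P values adjusted by Benjamini-Hochberg; threshold 0.1), within each age, in Het alone for age, and over all 12 samples for the interaction. The SE is the log2 fold change divided by the square root of F. CPM used TMM library sizes of all 12 samples, and levels per kb used the deposited exon lengths. At depths of 14438781 to 21043245 counts, a gene near 1 CPM rests on few reads, so counting error weighs on it. Samples of a group differed beyond counting error (chi-square per degree of freedom 5.69 to 11.4 over 12 pairs), so none was merged. Same-numbered P7 samples deviated together from their group means (correlations 0.12 to 0.37, all above 0.1), so the number was taken as a block there as an alternative. Pairs of unlike number at P7 had correlations of -0.31 to 0.20, which overlap that range. At P2 the same-numbered pairs had 0.07 to 0.32, and not all passed 0.1.

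The genes and lists were chosen with earlier results of these data known. Values in every sample are given for genes past the threshold in a genotype comparison and for the 6 largest rises and falls with age among genes with at least 10 counts on average, and levels for the 3 highest genes per family. The tests were checked on simulated data. Alternatives were DESeq2 1.42.0, its size factors in edgeR, scaling on Sertoli genes, no filter, a fit of all 12 samples, a threshold of 0.05, the block, and leaving out each sample. Protein sequences were not used here.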

Additional observations from a re-analysis of the deposited data

Results flagged for a closer look

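Fzd8, a frizzled receptor, was picked by a search of the 47 genes for genotypes that separated in opposite directions at the 2 ages. How many of all genes do so was not counted, so the pattern is not shown to be unusual. At P2 it had 32.3, 30.3 and 32.1 CPM in Het and 27.1, 29.9 and 29.4 in Null samples, so all Null samples were lower, whereas at P7 it had 23.5, 23.3 and 23.5 in Het and 24.8, 27.8 and 25.9 in Null samples, all higher. Neither difference passed the threshold (-0.13 ± 0.08 with adjusted P = 0.884, and 0.16 ± 0.08 with adjusted P = 0.207). The interaction was 0.29 ± 0.10 (edgeR, adjusted P = 0.246) and did not pass either.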

How the results depend on the processing

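The alternatives gave 430 values for the 10 genes called at P7 and the 8 rises and 17 falls with age. Of these, 393 kept the direction and the side of the threshold, 34 lost the threshold and 3 turned. Under Sertoli scaling Wnt6, Wnt2b and Fzd2 at P7 became -0.08, -0.09 and -0.15. None of the 3 passed the threshold there (edgeR, adjusted P = 0.308, 0.414 and 0.11). That scaling also gave 0 higher and 26 lower WNT genes at P7 (main 3 and 7), with 64 higher and 10604 lower among all genes (main 1247 and 2221, 99.4% against 64.0% of calls lower), and 8 lower WNT genes in the interaction (main 0, all genes 24 and 3651 against 5 and 85). At P2 it gave 1 and 33 of all genes (main 1 and 6, 97.1% against 85.7% lower). Without the filter 2 WNT genes were lower at P2 (Lef1 and Rspo2), with 60 and 165 of all genes higher and lower. The replicate block gave 6 higher WNT genes at P7 and 1 lower in the interaction (Tcf7), and changed no other count of WNT genes by over 1.5 times. Over all genes it gave 3 and 30 at P2, where the samples share only a number, 2142 and 2801 at P7 and 121 and 342 in the interaction. DESeq2 called 14 and 62 at P2 and 116 and 304 in the interaction, where no filter gave 123 and 379 and size factors of the DESeq2 type gave 8 and 79. At 0.05 there were 0 and 4 at P2, 639 and 1553 at P7 and 0 and 10 in the interaction. Leaving out a sample left 1 to 3 higher and 5 to 9 lower WNT genes at P7, with 1 higher without Het 4, Het 5 or Null 5, 7 to 9 rises and 15 to 18 falls with age, and none at P2 or in the interaction; all genes higher and lower were 0 to 1 and 1 to 4 at P2, 471 to 1073 and 1216 to 2107 at P7, and 0 to 20 and 0 to 182 in the interaction. The cause of these differences was not tested. No paired analysis was possible for age because the ages share no numbers.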
